A study of Mus musculus with 2 samples.

Results

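Endothelial cells, which line the inside of blood vessels, were present among cells sorted for oligodendrocyte surface antigens, and 307 of the 4841 deposited barcodes were taken as endothelial. A barcode, the tag of 1 droplet, was a member when it had at least 500 detected genes and at most 15% of its unique molecular identifiers (UMIs, each counting 1 captured RNA molecule) from mitochondrial genes. It also needed a sum of at least 20 UMIs of Cldn5, Flt1, Ly6c1 and Pecam1 per 10000 UMIs. Its sum of the oligodendrocyte genes Mobp, Mog and Mal had to be under 40 and that of the precursor genes Pdgfra, Cspg4 and C1ql1 under 5. Members were thus chosen by the measured levels of the 4 marker genes, which are given as description only.

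The cells came from the lateral striatum of male C57/BL6 mice that had a 60-minute occlusion of the middle cerebral artery (MCAO) on postnatal day 10 and 2 weeks of reperfusion. One library was made from the occluded (ipsilateral) side and the other from the opposite (contralateral) side, each from striata of 3 animals pooled before dissociation. All mice had the occlusion, so the contralateral library is the comparison tissue and not tissue of uninjured animals. Cells were sorted by flow cytometry for A2B5, O4 or both, antigens of the oligodendrocyte lineage, and both libraries carry the cell type label oligodendrocyte. The endothelial barcodes passed that sort for a reason that was not measured, and they may not represent all vessels of the tissue.

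Brain endothelium forms the blood-brain barrier: tight junctions seal the gaps between cells, and transporters carry glucose, amino acids, thyroid hormone and lipids across them. Gene expression changes gradually along the vessel from arteries through capillaries to veins. Postcapillary venules are the main place where activated endothelium displays adhesion molecules that bind leukocytes, and interferons induce antiviral and antigen-presentation genes in endothelium as in most cells.

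The contralateral library gave 183 endothelial barcodes among 1913 that passed the gene and mitochondrial limits (9.57%, exact Clopper-Pearson 95% interval 8.28 to 10.97). The ipsilateral library gave 124 among 2505 (4.95%, interval 4.13 to 5.87). The endothelial share was therefore lower ipsilaterally beyond counting error, but it is a share of sorted cells, so the sort and the numbers of other cells set part of it. The endothelial barcodes held 1630427 contralateral and 1114334 ipsilateral UMIs, with medians of 8282 and 8549 per barcode, against 16946 and 20953 in the other barcodes. Median detected genes were 2900 and 3017, and median mitochondrial shares 4.18% and 3.96%. No barcode sequence was shared between the libraries (0 shared). With 1 library per side there is no replicate check and no test: every interval here covers counting error only, and a difference may be between these libraries rather than between the sides.

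The values of the marker sum that chose the members are given as description. Contralateral members had sums of 35.2 to 222 per 10000 UMIs (median 134) and ipsilateral members 25.0 to 219 (median 125). A further 2 contralateral and 5 ipsilateral barcodes also reached a sum of 20 but were left out by the oligodendrocyte or precursor limit. Of the barcodes under 20, the highest had 7.10 contralaterally and 12.1 and 11.2 ipsilaterally. All 4 markers were detected in 178 of 183 contralateral and 112 of 124 ipsilateral members.

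The name was checked against 25 endothelial genes that the rule did not use, among them Cdh5 (VE-cadherin), Tek and Tie1 (angiopoietin receptors) and Emcn (endomucin). Their summed level had a median of 439 UMIs per 10000 in contralateral and 436 in ipsilateral members, and the lowest member had 89.5. Summed over all members the list was 41595 CPM (UMIs per 1000000 UMIs of the class) contralaterally and 42243 CPM ipsilaterally, against 472 and 469 CPM in the other barcodes. These genes were measured in the same barcodes that the rule chose and give a description, not a test, of the name.

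RNA of other cell types was low but not absent. The 9 leukocyte genes, including Ptprc (CD45) and Cd3e, had 0 UMIs in both libraries, where 3 UMIs would be 1.84 CPM contralaterally and 2.69 CPM ipsilaterally. The microglial genes C1qa, C1qc, Tmem119 and Csf1r were also at 0 in both, and of the whole list of 11 microglial genes 5 were at 0 contralaterally and 6 ipsilaterally. The list as a whole was not at 0. It summed to 49.1 CPM contralaterally and 30.5 CPM ipsilaterally, against 81.6 and 38.2 CPM in the other barcodes. Its UMIs lay in 63 of 183 contralateral and 32 of 124 ipsilateral members. Mural (pericyte and smooth muscle) RNA was 105 CPM contralaterally and 200.1 CPM ipsilaterally, against 365 and 288 CPM in the other barcodes. Of its 15 genes 4 were at 0 contralaterally and 3 ipsilaterally. The 3 measured ones, Rgs5, Vtn and Mcam, were all above 0 (51.0% of all genes were), with a median log2 ratio of 0.91. Each had 20% or more of its UMIs in 1 barcode of the higher library (4.52% of all genes did). The part of mural RNA in the differences below was not tested. At least 10 mural UMIs per 10000 were seen in 2 contralateral and 7 ipsilateral members, at least 10 astrocyte UMIs in 4 and 2, and at least 10 neuroblast or neuron UMIs in 1 and 1. Mature oligodendrocyte RNA was spread over nearly all members, with a median of 8.34 UMIs per 10000 contralaterally (range 0 to 28.9) and 10.5 ipsilaterally (1.87 to 25.1). None of its 10 genes was at 0, and 8 of the 10 had a ratio above 0 (51.0% of all genes did), with a median log2 ratio of 0.45. The list summed to 841.5 CPM contralaterally and 1022 CPM ipsilaterally, and 3 counting intervals lay above equal levels (5.98% of all genes). Its members Mobp, Mog and Mal were limited by the membership rule, which bounds the range. Scrublet, which scores likely doublets, called 14 contralateral and 101 ipsilateral barcodes in all, of which 1 in each library was endothelial. Its score limit was set automatically for each library, at 0.274 contralaterally and 0.154 ipsilaterally, so the numbers called cannot be compared between them.

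For each gene the UMIs were summed over the members of a library and expressed as CPM of the members' total. Differences are given as the log2 of the ipsilateral level divided by the contralateral one, each increased by 5 CPM, which draws low genes toward 0. Each ratio is followed by the exact 95% interval of the ratio without added CPM, so for a rare gene the interval can lie beyond the ratio itself. Across the 8865 genes with at least 20 UMIs, 51.0% had a ratio above 0 and 49.0% below, with a median of 0.01 and quartiles of -0.19 and 0.20. A ratio of at least 2-fold was seen for 42 genes higher ipsilaterally (0.474%) and 78 lower (0.88%). The counting interval lay above equal levels for 530 genes (5.98%) and below for 451 (5.09%).

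Endothelial and barrier genes had list medians near 0, with single members differing in both directions. Of the 25 other endothelial genes, 13 were above 0 (51.0% of all genes were), with a median of 0.00, and none reached 2-fold. Above 0 were 11 with median-of-ratios scaling, which lowers each ratio by about 0.02, and 9 with each barcode weighted equally. Intervals lay above equal levels for 5 and below for 5 of the 25, against 5.98% and 5.09% of all genes. Cdh5 was 428 CPM contralaterally and 433 CPM ipsilaterally, and Tek 275 and 273 CPM. The lowest ratios were those of Kdr, the main receptor for VEGF-A, and Emcn, a sialomucin of capillary and venous endothelium. Kdr was 689 and 534 CPM, a log2 ratio of -0.37 (interval -0.51 to -0.22), and Emcn 913 and 707 CPM, also -0.37 (-0.50 to -0.24).

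Tight and adherens junction genes differed little. Of 11 measured, which include the rule genes Cldn5 and Pecam1, 7 were above 0 and 4 below (5 above with median-of-ratios scaling), with a median of 0.02 and a range of -0.05 to 0.26. Without the rule genes 6 of 9 were above 0 (51.0% of all genes were), again with a median of 0.02. Of their intervals 2 lay above equal levels (5.98% of all genes) and 0 below. Cldn5, the main claudin of the barrier and a gene of the membership rule, was 5278 and 5182 CPM, and Ocln (occludin) 291 and 280 CPM. The scaffold Tjp1 (ZO-1) was 359 and 373 CPM. The adhesion molecule Jam2 was 227 and 272 CPM (log2 ratio 0.26, interval 0.04 to 0.48), and Lsr, an organiser of tricellular junctions, 305 and 362 CPM (0.24, 0.05 to 0.44).

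Barrier transporters were divided, with 9 of 20 above 0 and 11 below (51.0% and 49.0% of all genes) and a median of -0.02. Intervals lay above equal levels for 3 and below for 6 (5.98% and 5.09% of all genes). Slc7a5 and Slc3a2 encode the light and heavy chains of the large neutral amino acid transporter, and their ratios had opposite signs. Slc7a5 was 357 CPM contralaterally and 231 CPM ipsilaterally (log2 ratio -0.62, interval -0.85 to -0.42), while Slc3a2 was 872 and 1033 CPM (0.24, 0.13 to 0.36). Slc7a5 was also lower ipsilaterally in the other barcodes, with a ratio of -0.47. Tfrc, the transferrin receptor, was 461 and 356 CPM (-0.37, -0.55 to -0.19), and Slc7a1, which carries cationic amino acids, 537 and 429 CPM (-0.32, -0.49 to -0.16). Slc22a8, an organic anion transporter, was higher at 449 and 527 CPM (0.23, 0.07 to 0.39). The glucose transporter Slc2a1 and the drug efflux pump Abcb1a, named here outside the rule for named genes after their values were seen, were 2390 and 2656 CPM and 902 and 953 CPM. None of the 11 junction and 20 transporter genes reached 2-fold.

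Interferon-response genes were higher in the ipsilateral endothelial barcodes. Of 30 measured, 28 had a ratio above 0, against 51.0% of all genes, and the median log2 ratio was 0.46. For 18 of the 30 the counting interval lay above equal levels, against 5.98% of all genes, and for 0 below. The 28 and the median were alike with both other scalings (28 of 30, 0.44 and 0.41). The 2 genes below 0 were Ifi27 (179 and 164 CPM) and the RNA sensor Ddx58 (47.8 and 41.3 CPM), whose intervals both include equal levels. The list was also higher ipsilaterally in other cells, with a median of 0.30 in all other barcodes, where 26 of 31 were above 0 against 39.3% of all genes. In mature oligodendrocyte barcodes the median was 0.20, with 17 of 26 above 0 against 49.1%, and in precursor barcodes 0.68, with 23 of 26 against 40.0%. Whether endothelial cells differ from them was not tested.

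The genes with the largest ratios were 3 members of the Ifit family, which bind foreign RNA, and regulators of the response. Ifit3 had 37 contralateral UMIs in 27 barcodes and 91 ipsilateral UMIs in 35, or 22.7 CPM (Poisson interval 15.98 to 31.3) and 81.7 CPM (65.7 to 100). Its log2 ratio was 1.65 (1.28 to 2.44). Ifit1 was 76.7 and 148 CPM (0.91, 0.61 to 1.30). Ifit2 had 2 and 19 UMIs (1.82, 1.75 to 6.94), with 26.3% of the ipsilateral ones in 1 barcode.

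The transcription factor Irf7, which amplifies interferon production, was 63.2 CPM contralaterally and 137 CPM ipsilaterally (1.06, 0.75 to 1.49). Stat2, part of the factor that interferon receptors activate, was 22.7 and 52.0 CPM (1.04, 0.58 to 1.83). Irgm1, a GTPase of the interferon-induced defence against intracellular pathogens, was 36.8 and 76.3 CPM (0.96, 0.56 to 1.55). None of these regulators rested on 1 barcode: the highest share of ipsilateral UMIs in a single barcode was 4.58% for Irf7, 6.90% for Stat2 and 7.06% for Irgm1. The most abundant gene of the list, Ifitm3, a membrane protein that blocks virus entry, was 904 and 1211 CPM (0.42, 0.31 to 0.53). It is named outside the rule, after its values were seen.

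**Figure D1:**
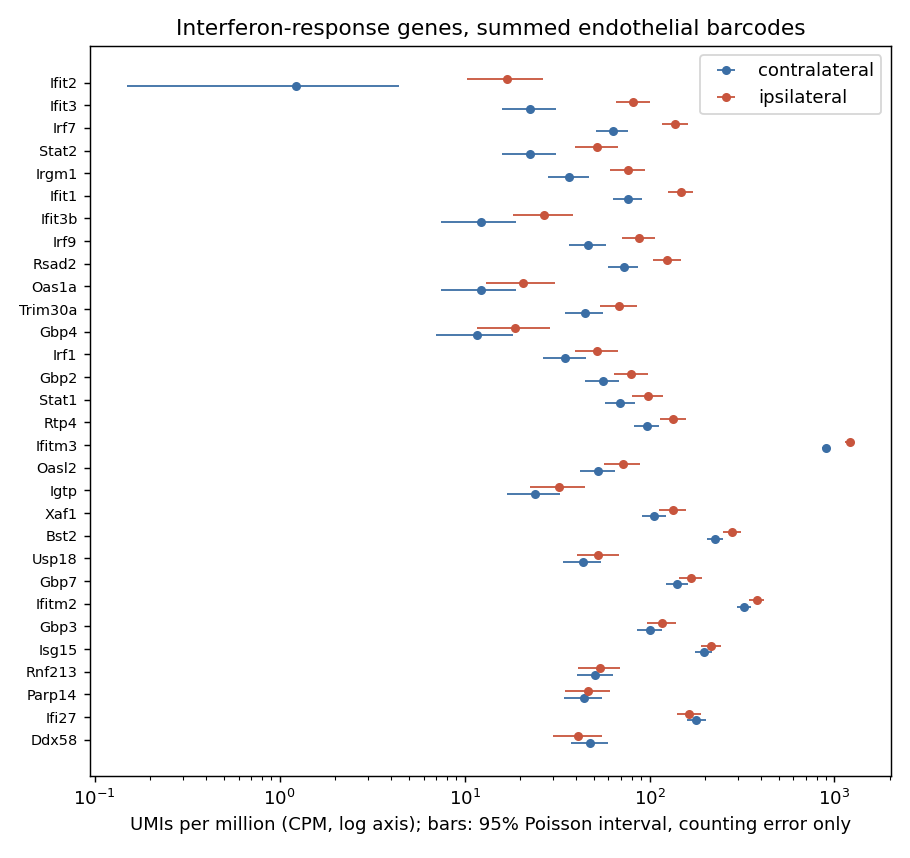
Level of each of the 30 measured interferon-response genes in the summed endothelial barcodes, in CPM on a log axis, blue for contralateral and red for ipsilateral, with bars for the 95% Poisson interval and genes ordered by ratio. The red point lies to the right for 28 genes and to the left for Ifi27 and Ddx58, and intervals of the lowest genes are wide.

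The promoters of 3 genes described above that hold the motif, Ifit3, Ifit1 and Irgm1, are shown because many interferon-induced genes carry the interferon-stimulated response element before their start. Sequences are from RefSeq on GRCm38.p6, read 5′ to 3′ on the gene's strand and ending at the base before the start, and capitals mark each match of the element's letters on either strand: GAAA, any 2 bases and GAAA, or on the other strand TTTC, any 2 bases and TTTC. Overlapping matches are capitalised together.
Ifit3, chr19:34583359-34583528, plus strand: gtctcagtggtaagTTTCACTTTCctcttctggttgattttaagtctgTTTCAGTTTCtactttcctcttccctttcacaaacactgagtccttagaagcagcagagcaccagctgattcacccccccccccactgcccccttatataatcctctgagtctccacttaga
Ifit1, chr19:34640759-34640888, plus strand: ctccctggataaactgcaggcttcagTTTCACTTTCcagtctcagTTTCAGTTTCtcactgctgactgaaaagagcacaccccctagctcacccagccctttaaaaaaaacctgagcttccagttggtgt
Irgm1, chr11:48871421-48871520, minus strand: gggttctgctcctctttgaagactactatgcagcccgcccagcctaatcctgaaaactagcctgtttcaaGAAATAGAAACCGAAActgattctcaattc
Each of the 3 windows holds 2 matches, which begin 156 and 122 bases before the start in Ifit3, 104 and 85 in Ifit1, and 30 and 24 in Irgm1. In the 250 bases before the start, 15 of the 24 interferon-list genes with a RefSeq window held the motif (62.5%), against 936 of 27025 genes of the whole table (3.46%). Ifit2, which had the largest ratio, Irf7 and Ifitm3 were among the 9 without it. A match describes the letters of the window and is not evidence of binding in these cells.

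The higher level was spread over many barcodes. The summed interferon list ranged from 4.97 to 124 UMIs per 10000 in contralateral barcodes, with a median of 28.5 and quartiles of 17.8 and 39.3. In ipsilateral barcodes it ranged from 8.13 to 200, with a median of 35.2 and quartiles of 23.6 and 56.8. The 2 distributions overlapped over most of their range, and 80 of 124 ipsilateral barcodes (64.5%) lay above the contralateral median. The 5 ipsilateral barcodes with most UMIs of the list held 12.5% of its UMIs, and the 5 such contralateral ones 8.54%. Another set, the 5 barcodes of each library with most list UMIs per 10000, was left out as an alternative. The median log2 ratio was then 0.32, and with the top barcode of each gene left out it was 0.44.

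**Figure D2:**
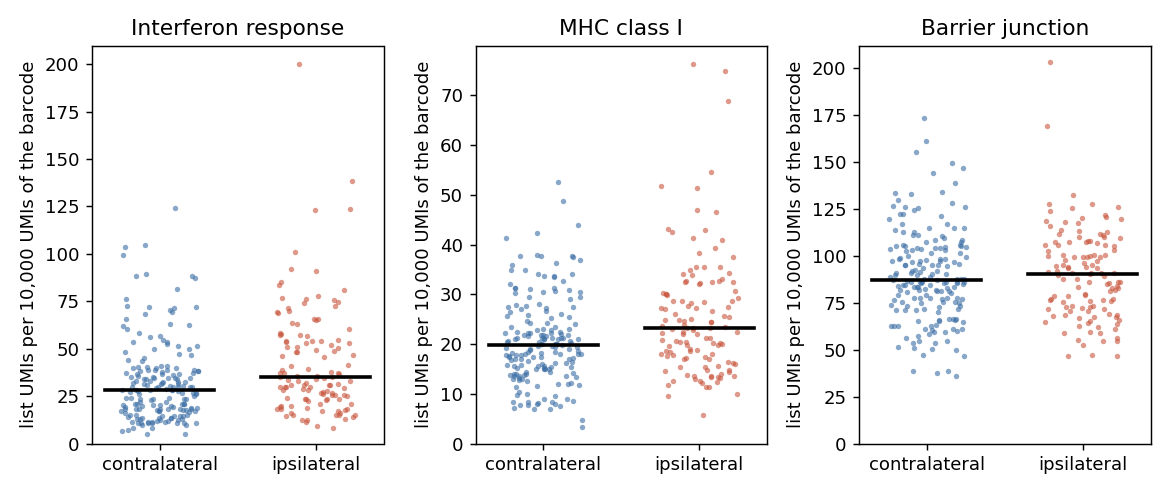
UMIs of 3 gene lists per 10000 UMIs of each endothelial barcode (1 point per barcode, 183 contralateral in blue and 124 ipsilateral in red, black line at the median). Interferon and MHC class I medians are higher ipsilaterally (28.5 and 35.2, and 19.8 and 23.3) with wide overlap, while barrier junction medians are 86.9 and 90.3.

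Shares of barcodes with a UMI were compared after thinning every barcode to 5200 UMIs, which left out 20 contralateral and 11 ipsilateral members. Irf7 was then detected in 27.6% of contralateral and 46.9% of ipsilateral members, and Ifit3 in 9.20% and 20.4%. Mature oligodendrocyte barcodes thinned to the same depth, whose medians before thinning were 27742 and 28625 UMIs, gave 0.36% and 1.03% for Irf7 and 0.73% and 0.62% for Ifit3. The endothelial shares were thus far above the level that these barcodes show.

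Ifi27l2a, which differed strongly in mature oligodendrocyte barcodes (5.33 and 69.9 CPM), had 1 UMI in the contralateral and 1 in the ipsilateral endothelial barcodes.

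Genes of MHC class I antigen presentation, which display peptides of the cell's own proteins to T cells, were also higher ipsilaterally. All 13 measured had a ratio above 0 (12 with median-of-ratios scaling), against 51.0% of all genes, with a median of 0.44, and 6 had an interval above equal levels, against 5.98%. The heavy chain gene H2-D1 was 577 CPM contralaterally and 788 CPM ipsilaterally (0.45, 0.32 to 0.58), and H2-K1 267 and 363 CPM (0.44, 0.24 to 0.64). The immunoproteasome subunits Psmb8 and Psmb9, which cut peptides for presentation, were 62.6 and 95.1 CPM (0.57, 0.20 to 1.01) and 33.1 and 52.0 CPM (0.58, 0.09 to 1.21). Heavy chain genes are near-identical copies of each other, so the split of reads among them is uncertain. The list median was 0.18 in all other barcodes (10 of 14 above 0, against 39.3% of all genes), where H2-D1 had a ratio of 1.41, larger than the endothelial one. No measured member rested on 1 barcode for 20% or more of its UMIs in the higher library.

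Genes of leukocyte adhesion and endothelial activation were above 0 in 17 of 17 measured (16 with median-of-ratios scaling and 14 with each barcode weighted equally), against 51.0% of all genes, with a median of 0.60 and 11 intervals above equal levels, against 5.98%. Of these 17, 5 had at least 20% of their UMIs in the higher library in 1 barcode, against 4.52% of all genes. Without the 1 ipsilateral barcode that held all Ackr1 UMIs the median was 0.33 and 15 of 16 measured genes were above 0, and with each barcode weighted equally it was 0.36. Icam1, the adhesion molecule that leukocyte integrins bind, was spread on both sides. It had 122 contralateral UMIs in 39 barcodes and 187 ipsilateral UMIs in 37 barcodes, or 74.8 and 168 CPM (1.11, 0.83 to 1.51), and 1.14 without the top barcode of each library but 0.74 with each barcode weighted equally.

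Vcam1, the ligand of the leukocyte integrin VLA-4, was concentrated on both sides. It had 50 UMIs in 12 contralateral barcodes, 46.0% of them in 1 barcode, and 82 UMIs in 14 ipsilateral barcodes, 40.2% in 1 barcode. Cxcl1, a chemokine that attracts neutrophils, had 47 and 73 UMIs in 12 barcodes of each library. Ptgs2 (COX-2), which makes prostaglandins, had 8 and 28 UMIs, in 5 and 12 barcodes. The feedback inhibitor Socs3, named outside the rule after its values were seen, was 140 and 249 CPM (0.81, 0.57 to 1.09) and had a larger ratio, 1.19, in the other barcodes.

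**Figure D3:**
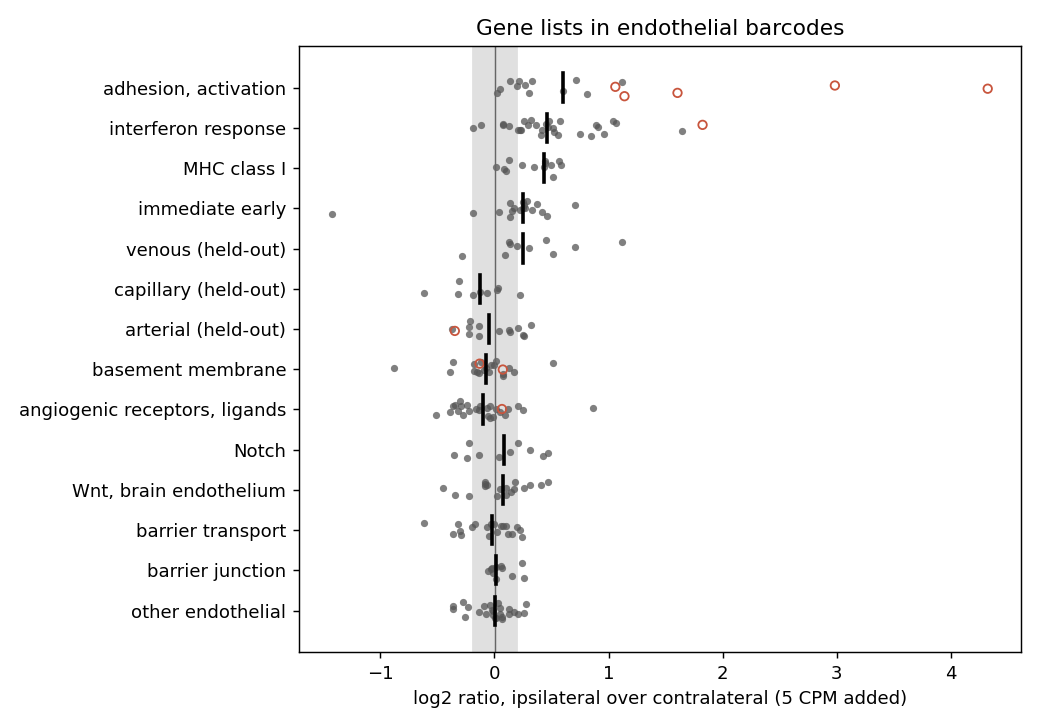
Log2 ratio, ipsilateral over contralateral, of every measured gene in 14 lists (points, open red where at least 20% of the UMIs in the higher library sit in 1 barcode), with the list median as a black bar and the quartiles of all 8865 genes (-0.19 and 0.20) as a grey band. The medians of the MHC class I, interferon and adhesion lists (0.44, 0.46 and 0.60) lie right of the band, and the largest adhesion ratios are open circles.

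Stress and immediate early genes, which respond within minutes to dissociation as well as to signals in tissue, were measured beside these lists. Of 18 measured, 16 were above 0 and 14 had an interval above equal levels and 1 below (51.0%, 5.98% and 5.09% of all genes), with a median of 0.25 (0.15 without the 5 deepest barcodes of each library). Junb was 2740 and 3774 CPM (0.46, 0.40 to 0.52), and Ier3 283 and 463 CPM (0.70, 0.53 to 0.90). The list was similarly above 0 in the other barcodes (16 of 19, against 39.3% of all genes, median 0.33). The part of immediate early genes and of mature oligodendrocyte RNA in the differences between the libraries was not tested. In the heat shock list 6 of 10 genes were above 0 (5 with median-of-ratios scaling), and in the hypoxia list 11 of 15, against 51.0% of all genes. The medians were 0.03 and 0.09. Among hypoxia genes, Bnip3, a mitophagy receptor, was 52.7 and 75.4 CPM (0.48, 0.06 to 0.97) and Ddit4, an inhibitor of mTORC1, 161 and 219 CPM (0.43, 0.19 to 0.70).

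Of 25 measured receptors, ligands and signal mediators of angiogenesis, leaving out the rule gene Flt1, 17 were below 0 (49.0% of all genes were), with a median of -0.07. Intervals lay below equal levels for 4 (5.09% of all genes) and above for 1. The 1 above was the ligand Vegfb, with 10 and 17 UMIs (0.86, 0.11 to 2.60), and the 4 below were Kdr, Flt4, Bmpr2 and Angpt2. Kdr is given above, and Flt4 (VEGFR3) was 54.6 and 36.8 CPM (-0.51, -1.14 to -0.02). As description, Flt1 (VEGFR1) was 2648 and 2148 CPM. Bmpr2, the type II BMP receptor, was 336 and 264 CPM (-0.34, -0.56 to -0.14), and Angpt2, a ligand of Tek released by activated endothelium, 90.8 and 68.2 CPM (-0.39, -0.83 to -0.004). Angpt2 was held by few barcodes, 25 contralateral and 17 ipsilateral, with 39.5% of the ipsilateral UMIs in 1 barcode. Genes of tip cells, the leading cells of a sprout, had 9 of 11 above 0 (51.0% of all genes were) with a median of 0.08. The interval lay above equal levels for 1 and below for 1. Without barcodes holding other cell type markers 4 of 11 were above 0, with a median of -0.10. Of the 11, 4 had 20% or more of their UMIs in 1 barcode (4.52% of all genes did).

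Wnt and Notch lists had medians of 0.07 (11 of 18 above 0) and 0.09 (6 of 10 above 0, and 4 of 10 with each barcode weighted equally), where 51.0% of all genes were above 0. Wnt signalling through beta-catenin maintains the barrier, and its transcription factor Tcf7 was 47.8 and 68.2 CPM (0.47, 0.04 to 0.99) and the feedback inhibitor Nkd1 158 and 212 CPM (0.41, 0.16 to 0.68). The Wnt target Apcdd1 was 28.8 and 19.7 CPM, with an interval that includes equal levels (-0.45, -1.35 to 0.21). Of the Notch genes, only the effector Hes1 had an interval above equal levels, at 452 and 610 CPM (0.43, 0.28 to 0.59).

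Flow-responsive genes had 5 of 7 above 0 (51.0% of all genes were) with a median of 0.09. Without the 5 deepest barcodes of each library 3 of 7 were above 0, with a median of -0.007. Klf2, a transcription factor induced by laminar flow, was 6351 and 7571 CPM (0.25, 0.21 to 0.30), and its target Thbd, the thrombin receptor thrombomodulin, 135 and 225 CPM (0.72, 0.47 to 1.01). Klf2 was higher in the other barcodes too, with a ratio of 0.51. Of the caveola genes, Cavin3 stood apart at 96.9 and 174 CPM (0.81, 0.53 to 1.16), while Cav1, the caveolin that forms the coat, was 328 and 311 CPM. The list median was -0.04 (0.10 with each barcode weighted equally).

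Basement membrane and matrix genes had 7 of 21 above 0 (51.0% of all genes were), with a median of -0.07. Intervals lay below equal levels for 5 (5.09% of all genes) and above for 1 (5.98%). The collagen IV chain Col4a2 was 638 and 564 CPM (-0.17, -0.32 to -0.03), and nidogen Nid1 126 and 96.9 CPM (-0.36, -0.73 to -0.03). Mmp15, a membrane-bound matrix metalloproteinase, was 57.0 and 28.7 CPM (-0.88, -1.62 to -0.40). Sparcl1, a secreted matricellular protein, had the 1 interval above equal levels, at 1311 and 1875 CPM (0.51, 0.43 to 0.60). It was spread over 177 of 183 and 123 of 124 barcodes and had a ratio of -0.58 in the other barcodes.

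Over all genes, 6124 had at least 50 UMIs and 20 CPM in a library and belonged to no mitochondrial, ribosomal or predicted class. In 6033 of these no barcode held 20% or more of the UMIs in the higher library. Of the 12 spread genes with the largest ratios, Ifit3, Irf7 and Stat2 belong to the interferon list above. Ifi44, an interferon-induced gene outside the list, was 28.8 and 76.3 CPM (1.26, 0.87 to 1.95), and Socs1, an inhibitor of JAK kinases, 14.1 and 38.6 CPM (1.19, 0.69 to 2.25), where only the ipsilateral level passes the 20 CPM limit.

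The other 7 were Vstm2b, Nrros, Icam1, Gsn, Gstp1, Rgs16 and Srf. Vstm2b, an immunoglobulin-domain gene, was 20.9 and 58.3 CPM (1.29, 0.86 to 2.13), and Nrros, which anchors latent TGF-beta on cells, 14.1 and 39.5 CPM (1.22, 0.73 to 2.28), which likewise passes that limit only ipsilaterally. Srf, the serum response factor, was 27.0 and 59.2 CPM (1.01, 0.56 to 1.72), and Rgs16, which shortens G protein signals, 24.5 and 54.7 CPM (1.02, 0.56 to 1.77). Gsn (gelsolin) and Gstp1 (a glutathione transferase) are abundant in oligodendrocytes. After thinning, 100% and 88.0% of contralateral mature oligodendrocyte barcodes had a UMI of them, against 14.1% and 13.5% of endothelial ones.

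Of the spread genes with the smallest ratios, Ctgf, a matricellular protein and target of YAP, was the lowest. It had 458 UMIs in 78 contralateral barcodes and 113 UMIs in 41 ipsilateral barcodes, 281 and 101 CPM, a ratio of -1.43 (-1.78 to -1.17), and -1.47 without the top barcodes. In all other barcodes its ratio was -0.07, and in precursor barcodes -0.68. Cyr61, a related YAP target that is named outside the rule after its values were seen, was 1298 and 1460 CPM (0.17, 0.08 to 0.26). Itga4, the alpha chain of the integrin VLA-4, was 121 and 43.1 CPM (-1.40, -1.98 to -1.03), and Htra1, a secreted protease, 109 and 47.6 CPM (-1.11, -1.66 to -0.74). Both were also lower ipsilaterally in precursor barcodes, Itga4 with a ratio of -0.61 and Htra1 with -0.58, and Htra1 in all other barcodes with -0.43. The remaining 9 were Yeats2, Plekhh2, Wdr89, Fbxl20, Fastk, Maml1, Tmem2, H2afy2 and Oard1, with ratios of -1.28 to -0.90. Wdr89 was also lower in the other barcodes (-0.78).

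Vessel segments were read from genes known to mark arteries, capillaries or veins, with separate genes to assign barcodes and to check them. By the assignment planned at first, the segment with most UMIs, 159 of 163 contralateral barcodes (97.5%) and 107 of 113 ipsilateral ones (94.7%) were capillary, because the capillary genes are far more abundant. At 5200 UMIs a contralateral barcode held on average 37.4 UMIs of the capillary assignment genes, 3.02 of the venous and 0.48 of the arterial ones. Ipsilateral barcodes held 32.9, 5.10 and 0.65. Over all members without thinning, a single ipsilateral barcode held 33.0% of the venous assignment UMIs of its library. The top contralateral barcode held 4.57%. Part of the higher ipsilateral venous mean thus rests on a single barcode. A second assignment, chosen after seeing that nearly all barcodes were capillary, divided each list by its mean over all members, and it is used below. The same ipsilateral barcode enters the venous mean, and segment shares without it were not computed.

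With scaled lists 17 contralateral barcodes (10.4%, interval 6.19 to 16.2) and 8 ipsilateral ones (7.08%, 3.11 to 13.5) were arterial. With at least 3 instead of 2 UMIs required the arterial ones were 8 (4.91%) and 7 (6.19%), so the order of the libraries turned, and with the held-out lists used for assignment they were 57.7% and 53.1%. Capillary barcodes were 87 (53.4%, 45.4 to 61.2) and 48 (42.5%, 33.2 to 52.1), and venous ones 42 (25.8%, 19.2 to 33.2) and 35 (31.0%, 22.6 to 40.4). The intervals of the 2 libraries overlap for all 3 segments. Unassigned were 17 and 22 barcodes, and 16 of 146 and 15 of 91 assigned barcodes lay within 1.2 times of the next segment. A segment here is a range along the vessel and not a separate cell type.

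Genes held out of the assignment followed it most clearly for arteries and veins. Of the arterial genes with at least 10 UMIs, 16 of 16 were highest in arterial barcodes contralaterally and 10 of 14 ipsilaterally. In the first count Fbln5 (11 of 11 arterial UMIs) and Clu (92.3% of 13) rested on 1 barcode, and Cxcl12 was nearly level, at 4362 CPM in arterial and 4354 CPM in capillary barcodes. Hey1, a Notch effector of arterial identity, was 181 CPM in arterial, 78.8 in capillary and 28.0 in venous barcodes contralaterally, and 362, 130 and 20.7 CPM ipsilaterally. Of the venous genes, 7 of 10 and 10 of 12 were highest in venous barcodes, the latter including Lrg1, whose 14 UMIs lay in 1 barcode. Il1r1, the interleukin-1 receptor, was 6.96, 2.67 and 60.1 CPM in arterial, capillary and venous contralateral barcodes, and 0, 0 and 64.5 CPM ipsilaterally, from 25 UMIs. Tmsb10, which binds actin monomers, was 647, 2436 and 5419.8 CPM contralaterally. Capillary genes followed less, with 5 of 9 highest in capillary barcodes on each side.

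**Figure D4:**
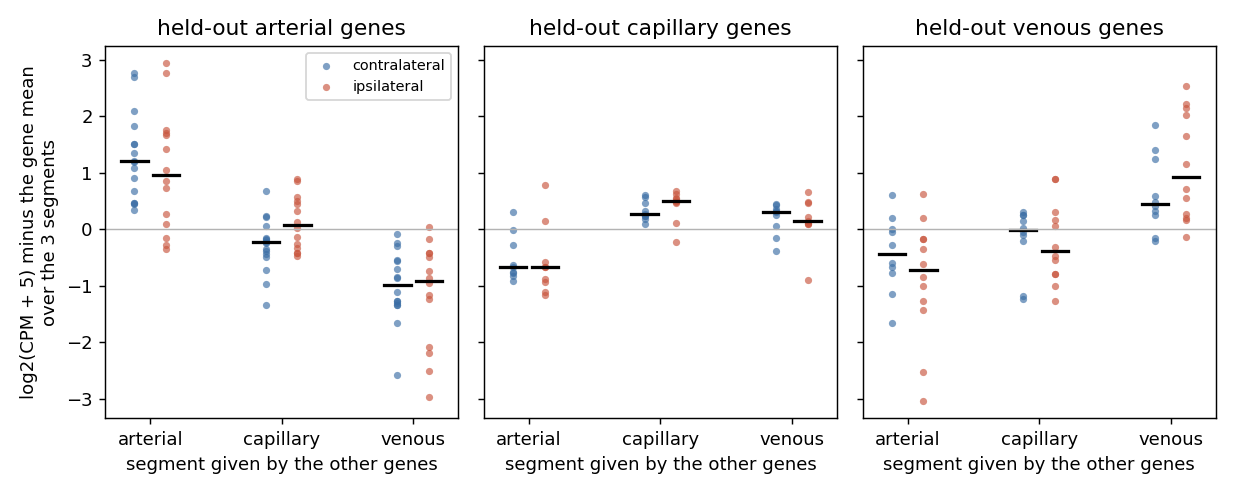
Log2(CPM + 5) of each held-out gene with at least 10 UMIs, minus its mean over the 3 segments, by the segment the assignment genes gave (points are genes, blue contralateral and red ipsilateral, black bars medians). Held-out arterial genes are highest in arterial barcodes (16 of 16 contralaterally, 10 of 14 ipsilaterally) and venous genes in venous ones (7 of 10 and 10 of 12), while capillary genes differ little between capillary and venous barcodes.

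Among segment genes, the capillary assignment genes were lower ipsilaterally and most held-out venous genes higher. All 6 capillary assignment genes were below 0 (49.0% of all genes were), with a median of -0.15. Of their intervals 4 lay below equal levels (5.09% of all genes), including those of Tfrc and Mfsd2a. Mfsd2a, a lipid transporter that limits transcytosis, was 497 and 441 CPM (-0.17, -0.34 to -0.01). The same 6 genes were also lower ipsilaterally in all other barcodes, with 0 above 0 (39.3% of all genes were) and a median of -0.20. In mature oligodendrocyte barcodes the median was -0.27 (0 above 0, against 49.1% of all genes). In precursor barcodes it was -0.36 (1 above 0, against 40.0%). Whether endothelial cells differ from them was not tested. Of 9 held-out capillary genes 6 were below 0 (49.0% of all genes were), with a median of -0.13. Their intervals lay below equal levels for 3 and above for 1. In all other barcodes 2 of the 9 were above 0 (39.3% of all genes were), with a median of -0.12. Of 10 held-out venous genes 9 were above 0 (51.0% of all genes were), with a median of 0.25 and Csrp2 the exception. With each barcode weighted equally 7 were above 0. Intervals lay above equal levels for 5 (5.98% of all genes) and below for 1 (5.09%). In all other barcodes 6 of 11 measured were above 0 (39.3% of all genes were), with a median of 0.02. Besides Icam1, the venous genes above 0 in endothelial barcodes included Tmem252 at 431 and 618 CPM (0.52, 0.37 to 0.68). Vwf, the von Willebrand factor of larger vessels and a venous assignment gene, was 162 and 246 CPM (0.59, 0.35 to 0.85) and was found in 78 of 183 and 69 of 124 barcodes.

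Arterial genes had no common direction, with 7 of 14 held-out genes above 0 (51.0% of all genes were) and a median of -0.05. Cxcl12, a chemokine of arterial and capillary endothelium, was 3533 and 2734 CPM (-0.37, -0.43 to -0.31), and Edn1, the vasoconstrictor endothelin-1, 708 and 887 CPM (0.32, 0.20 to 0.45). The arterial assignment genes Mgp and Stmn2 had 6 and 37, and 18 and 37 UMIs, and 24 of the ipsilateral Stmn2 UMIs lay in a barcode that also held 20 of the neuronal gene Tubb3.

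Within segments, the interferon list had a median log2 ratio of 0.66 in venous barcodes (25 of 27 measured above 0), 0.25 in capillary barcodes (21 of 28) and 0.03 in arterial barcodes (7 of 12, from 17 and 8 barcodes). The medians of all genes in these segments were 0.02, -0.01 and -0.05. MHC class I medians were 0.47, 0.20 and 0.18. Barrier junction genes had medians of 0.31, 0.02 and -0.33, and barrier transporters 0.13, 0.06 and -0.53. The adhesion list had a median of 0.67 in venous barcodes (16 of 17 above 0), 0.16 in capillary ones (6 of 11) and 0.11 in arterial ones (3 of 5), and 3 of its genes, Lcn2, Vcam1 and Ackr1, had helped to assign venous barcodes. The share of all genes above 0 within each segment was not computed, so the counts above 0 have no such share beside them. The differences between segments were not tested.

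Single barcodes decided many of the most extreme ratios. Of the 120 genes past 2-fold, 61 had 20% or more of their UMIs in 1 barcode of the higher library, 17 of the 42 higher and 44 of the 78 lower genes. With the top barcode of each gene and library left out, 75 of the 120 were still past 2-fold, 28 higher and 47 lower. The barcodes behind the largest of them are described in turn.

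A single ipsilateral barcode of 12045 UMIs held all 106 UMIs of Ackr1, the chemokine receptor of venules, which had 0 contralateral UMIs. The same barcode held 210 of the 244 ipsilateral UMIs of Lcn2 (lipocalin-2, an acute-phase protein that binds bacterial siderophores), 14 of 14 of Lrg1, 33 of 82 of Vcam1 and 4 of 8 of Sele (E-selectin). It had 10 UMIs of Vwf and 28 of Slc38a5, both venous genes, and its interferon list was 92.2 per 10000. Its endothelial marker sum was 55.6, and its mural and microglial UMIs were 0. Scrublet did not call it. Contralaterally Lcn2 had 38 UMIs, 25 of them in 1 barcode that held 10 UMIs of Vwf and 4 of Icam1. With the top barcode of each library left out, Ackr1 had 0 UMIs on both sides and the ratio of Lcn2 was 1.45 in place of 2.98. The sixth gene of this kind, beside Stmn2, Vcam1 and Cxcl1, was the tetraspanin Cd82 with 46 and 71 UMIs.

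Mitotic genes were higher contralaterally through 2 barcodes. The G2/M list had 513 contralateral UMIs, 300 and 128 of them in 2 barcodes, while the next barcode had 3 and 116 of 183 had 0. The ipsilateral library had 48, with at most 5 in a barcode. All 10 measured genes were below 0 (49.0% of all genes were), with a median of -1.78 (-2.70 with 1 CPM added). All 10 had 20% or more in 1 barcode (4.52% of all genes did). Without the barcodes with at least 5 G2/M UMIs per 10000, only 1 gene was still measured. The barcode with 300 was the deepest of all endothelial ones at 29937 UMIs, with 72 of the 77 contralateral UMIs of Top2a, 32 of the 57 of Cenpf and 29 of the 42 of Mki67. It also held neuroblast and neuron genes at 73.8 per 10000, including 36 UMIs of Dpysl3 and 17 of Tubb3, and its marker sum of 39.8 was the second lowest of the contralateral library. Scrublet did not call this barcode either. The barcode with 128 G2/M UMIs had 17315 UMIs in all, with G2/M genes at 73.9 per 10000. It held under 10 neuroblast or neuron UMIs per 10000, a level that only the deepest barcode reached contralaterally.

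Hemoglobin genes came from 1 contralateral barcode of 24781 UMIs, of which 56.4% were hemoglobin or other erythrocyte UMIs. It held 6657 of the 6658 contralateral UMIs of Hbb-bs and 3154 of the 3155 of Hba-a1, and Scrublet called it. Its marker sum of 65.4 kept it among the members. The ipsilateral members had 1 UMI of Hba-a1 and 0 of Hbb-bs. Hba-a1 and Hba-a2 are near-identical copies, as are Hbb-bs and Hbb-bt, so the split between them is uncertain.

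A contralateral barcode of 8808 UMIs held all 11 contralateral UMIs of Fbln5, an elastic-fibre protein of arteries, with 13.6 astrocyte UMIs per 10000 and the lowest marker sum of its library, 35.2. An ipsilateral barcode of 12302 UMIs held 31 of 128 UMIs of the pericyte gene Rgs5 and 11 of 24 of Vtn, with mural genes at 39.0 per 10000. The remaining ipsilateral barcode was the one with Stmn2 and Tubb3 given above, which had 19032 UMIs and was called by Scrublet. Over all members the interferon, MHC class I, barrier junction and transporter lists had their UMIs spread, with at most 4.08% of a list's UMIs in any barcode of either library.

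**Figure D5:**
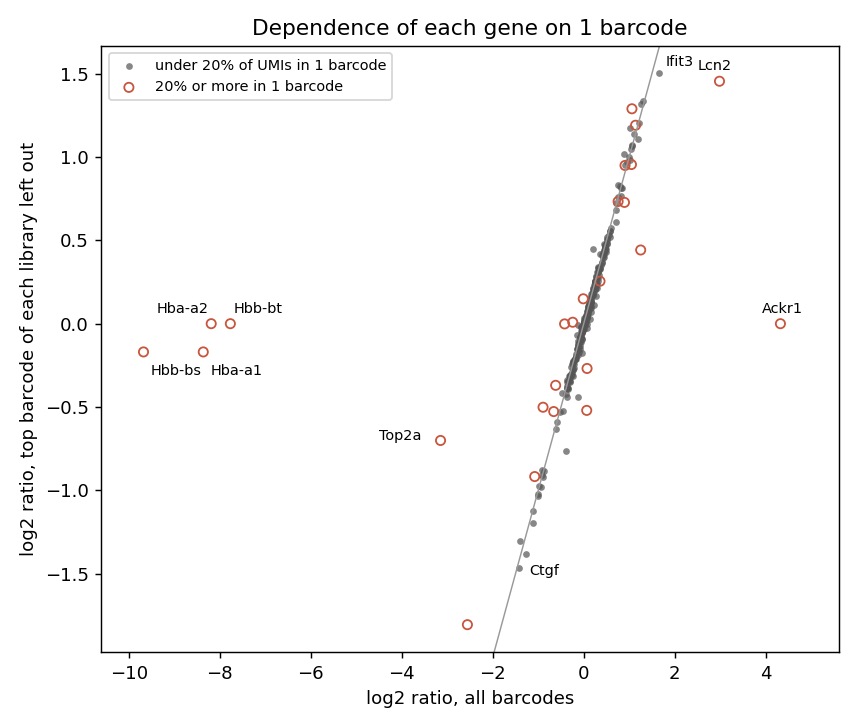
Log2 ratio of each gene of the lists and named genes with at least 50 UMIs, over all endothelial barcodes (horizontal) and with the top barcode of that gene left out in each library (vertical), open red where 1 barcode holds 20% or more of the UMIs in the higher library. Ackr1, Lcn2, Top2a and the 4 hemoglobin genes lie far from the line of equal values, while Irf7 (1.06 on both axes) and Ctgf (-1.43 and -1.47) lie near it, and ratios with 0 UMIs in a library depend on the added CPM.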

How the data were processed

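Members and gene lists were chosen with earlier results of these data known. The authors deposited raw UMI counts for each gene in each barcode. The submitters' processing notes name Cell Ranger 3.1.0 and mm10, while annotation and alignment settings are not given in the sources used. Counts were read as sparse matrices with scipy 1.17.1 and summed per library. Because each side has 1 library, nothing was tested. Shares carry exact Clopper-Pearson and sums exact Poisson 95% intervals, and ratios exact conditional binomial ones, for counting error only; UMIs of 1 cell are not independent samples. No doublets were removed in the main values; Scrublet (scanpy 1.11.5, expected rate 0.05) was an alternative. Named genes are all endothelial and segment genes, up to 6 members per other list with the largest absolute ratio, and over all genes the 12 largest and 12 smallest ratios where no barcode holds 20% of the UMIs, with 6 each way where one does. Aldoa, whose symbol stands for more than 1 gene identifier, was left out of the lists. Only the step that takes ratios of summed UMIs was tested on simulated counts. Alternatives were other added CPM, filters, scalings, member rules, thinning to 5200 UMIs and barcodes left out.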

Additional observations from a re-analysis of the deposited data

How the results depend on the processing

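No paired analysis was possible because each side has 1 library. The share of endothelial barcodes stayed within its counting interval in all 17 alternative values. Their number, held to a fold limit instead, was also unmoved in all 17. Over all alternatives the list medians ranged from 0.32 to 0.48 for interferon, 0.26 to 0.44 for MHC class I, 0.33 to 0.71 for adhesion and -0.03 to 0.05 for barrier junctions, with no change of sign in the first 3. Counts of genes past 2-fold depended most on the settings. The 42 higher genes were 116 with 1 CPM added, 5 with 20 CPM, 64 with at least 1 UMI, 13 with at least 100 UMIs and 75 with thinned barcodes. The 78 lower genes were 152 and 15 with 1 and 20 CPM and 13 with at least 100 UMIs. They were 37 without the 5 deepest barcodes of each library, 44 with a marker sum of at least 40, 43 without barcodes of other cell types and 40 without the G2/M barcodes. The G2/M median of -1.78 was -0.86 with 20 CPM, -1.14 with equal weights, -1.08 without top barcodes, -1.02 without the deepest, -1.08 with the stricter marker sum, -1.06 without other cell types, -0.25 without the G2/M barcodes and 0.090 after thinning, where 1 gene was measured.

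Single genes changed sign where a barcode was lost. Pclaf was -2.03 in the main setting and 0.13 without top barcodes, 0.33 without the deepest, 0.30 with the stricter marker sum, 0.34 without other cell types and 0.30 without the G2/M barcodes. Hba-a1 was 0.079 without the deepest barcodes, 0.073 without Scrublet calls and 0.069 without the erythrocyte barcode, and Tpx2 0.27 without the G2/M barcodes. Of 3474 single-gene values, 3244 stayed within their spread, 221 moved and these 9 reversed. Segment shares rested on the assignment genes: with the held-out lists arterial shares were 57.7% and 53.1%, capillary 8.59% and 6.19%, and venous 30.1% and 38.9% (contralateral and ipsilateral), and with scaled lists 10.4% and 7.08%, 53.4% and 42.5%, and 25.8% and 31.0%. At these depths most genes under 100 UMIs have intervals wider than the differences described. Thinning, the scaled segments and the values without the Ackr1, erythrocyte, G2/M or highest-interferon barcodes were chosen after seeing the data.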
